A study of Mus musculus with 4 samples.

Results

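The complement receptors and regulators measured here were Cd55, Cd55b, Cd46, Cr1l, Cr2 and C4bp, 6 of the 4167 genes with complete values. They were chosen by name as the receptors and regulators of complement in the measured stretch of the genome, without use of their values. RNA was measured in long-term haematopoietic stem cells (LT-HSCs), the cells at the root of blood formation, sorted from mouse tibia and femur marrow. There were 2 libraries from wild-type mice (WT, labelled ATF4WT) and 2 from conditional Atf4 knockout mice (ATF4 KO, labelled ATF4 CKO). Atf4 encodes a transcription factor of the stress response to amino acid shortage and misfolded protein. The Cre line, strain, age and number of animals are not given in the sources used here, so p-values measure at most the spread between these libraries. The study asked how adult stem cells change when Atf4 is lost. Atf4 itself was not analysed here, so its reads do not check the labels. Libraries were made from polyA RNA by a protocol derived from Smart-seq2, which amplifies full-length cDNA from few cells.

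Complement is a cascade of plasma proteins that deposits C3b and C4b on surfaces and can end in lysis of the cell. Host cells limit it with proteins built from short consensus repeats, which either speed the decay of the convertases that cleave C3 or act as cofactors for the protease factor I. In mice Cr1l (Crry) does both on most blood cells, Cd55 (decay-accelerating factor) does the first, and Cd46 (membrane cofactor protein) does the second but is mainly a protein of sperm. Cd55b is a second, mainly testicular decay-accelerating factor gene, Cr2 encodes complement receptors 1 and 2 of B cells and follicular dendritic cells, and C4bp encodes a liver-made plasma inhibitor of the classical pathway.

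All 6 genes are protein coding, lie on the minus strand of chromosome 1 and fall into 2 groups (GRCm38, GENCODE M21). The first holds Cd55b (chr1:130388537-130423009), Cd55 (chr1:130439027-130462744) and C4bp (chr1:130634773-130661632). The second starts 64.4 Mb further on, measured from the start of C4bp to that of Cd46, and holds Cd46 (chr1:195036826-195092249), Cr1l (chr1:195097382-195131586) and Cr2 (chr1:195136811-195176716). Cd55 and Cd55b start 39.7 kb apart, and Cr1l and Cr2 start 45.1 kb apart. In each of these pairs 1 gene was well expressed in WT cells and the other nearly silent, as the read numbers given further on show. The 250 bases upstream of the RefSeq start (GRCm38.p6, minus strand, 5′ to 3′, CpG dinucleotides in capitals) of these 4 genes are therefore shown side by side.
Cr1l: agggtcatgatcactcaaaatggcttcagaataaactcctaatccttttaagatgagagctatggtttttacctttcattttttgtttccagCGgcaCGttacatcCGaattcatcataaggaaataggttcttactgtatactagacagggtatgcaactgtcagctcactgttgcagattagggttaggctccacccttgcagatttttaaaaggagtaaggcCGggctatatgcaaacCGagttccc
Cr2: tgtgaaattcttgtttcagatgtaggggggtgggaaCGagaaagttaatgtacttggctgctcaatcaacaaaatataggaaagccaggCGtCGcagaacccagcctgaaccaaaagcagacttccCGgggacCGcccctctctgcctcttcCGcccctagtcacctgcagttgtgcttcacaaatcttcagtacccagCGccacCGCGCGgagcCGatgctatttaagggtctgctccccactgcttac
Cd55: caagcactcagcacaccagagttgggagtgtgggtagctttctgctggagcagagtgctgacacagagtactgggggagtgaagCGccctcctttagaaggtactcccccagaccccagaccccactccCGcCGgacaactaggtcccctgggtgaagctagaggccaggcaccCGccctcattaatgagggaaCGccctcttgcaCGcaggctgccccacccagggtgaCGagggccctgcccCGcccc
Cd55b: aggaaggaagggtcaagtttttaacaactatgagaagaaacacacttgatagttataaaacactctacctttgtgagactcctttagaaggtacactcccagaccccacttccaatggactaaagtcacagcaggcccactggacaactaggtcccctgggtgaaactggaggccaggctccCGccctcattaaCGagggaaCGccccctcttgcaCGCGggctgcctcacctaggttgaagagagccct

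These windows span chr1:195131571-195131820 for Cr1l, chr1:195176720-195176969 for Cr2, chr1:130462745-130462994 for Cd55 and chr1:130423044-130423293 for Cd55b. The upstream sequences of Cd55 and Cd55b aligned over 172 positions with 77.9% identity, from base 89 of the Cd55 window and base 79 of the Cd55b window. The window of Cr1l, the member with the most reads, held 5 CpGs, and that of Cr2, with 3 WT reads in all, held 11. Cd55 had 8, Cd55b 5, Cd46 10 and C4bp 2, and the median of 27025 RefSeq promoters of that length was 6. The number of CpGs thus did not follow the level of expression across the members. On either strand, GGGCGG (the GC box) occurred 2 times in Cd55, 2 times in Cr2 and once in Cd55b, and in 32.9% of all promoters. CCAAT occurred once in Cd55b and once in Cd46, and in 34.5% of all promoters. TGATGNAA, a core of the composite site of ATF4 and C/EBP proteins, was in none of the 6 windows and in 3.53% of all promoters.

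The deposited values are on a shrunken log2 scale, a regularised logarithm. Its equations gave back the whole reads behind the values for 1901 of the 1928 genes that have any, all members included (C4bp, listed at 0, counts as 0 reads). Over those genes the WT libraries held 973131 and 795383 reads. The ATF4 KO libraries held 36095 and 41521 reads, in 323 and 342 genes against 1717 and 1654 in WT, and 59.2% and 51.6% of them lay in 10 genes (13.6% and 14.5% in WT). The size factors used in the deposited values place the ATF4 KO libraries at 0.166% and 0.171% of WT replicate 1, whereas their read totals are 3.71% and 4.27% of it. Normalised reads below are reads divided by these size factors, so 1 read is worth far more in ATF4 KO than in WT. In bulk samples such as these, fewer cells of a type and less RNA per cell cannot be told apart.

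Of the labelled cell type's 13 listed markers, 3 lie in the measured stretch, and all were read in WT. Slamf1 (CD150) had 362 and 186 reads, Gfi1b 1579 and 1225, and Cd34, which is low on mouse LT-HSCs by the usual sort, 18288 and 15275. In ATF4 KO, Slamf1 and Gfi1b had 0 reads in both libraries and Cd34 had 9 and 8. Of the 4 listed myeloid genes in the stretch, Fcer1g had 1083 and 982 reads in WT and 1569 and 901 in ATF4 KO. The summed share of the myeloid genes was 0.20% and 0.26% of reads in WT and 9.36% and 3.58% in ATF4 KO. Fcer1g and Fcnb held nearly all of the share in ATF4 KO, but not in WT. The other 2 myeloid genes were lower in reads, with Fcgr3 at 627 and 665 in WT and 2 and 0 in ATF4 KO, and Cxcr2 at 133 and 160 in WT and 0 in both ATF4 KO libraries. The part of these 2 high myeloid genes and of the thin ATF4 KO libraries in the results below was not tested.

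In WT cells Cr1l was by far the most read member, followed by Cd55, while Cd46 was low and Cr2, Cd55b and C4bp were at or near 0. Cr1l had 1987 reads in WT replicate 1 and 1543 in WT replicate 2. Its normalised level was 90.7 ± 1.08 reads (SD, n = 2), nearly the same in both libraries. Read numbers of Cd55, the partner of Cr1l in speeding convertase decay, were lower in both. Cd55 had 349 and 223 reads and a normalised level of 14.5 ± 2.17 reads (SD, n = 2). Cd46 had 21 and 17 reads and a normalised level of 0.979 ± 0.0172 (SD, n = 2). Cr2 had 2 reads and 1 read, Cd55b had 1 read in WT replicate 1 only, and C4bp had none. The 2 WT libraries thus gave the same order for the 3 upper members. As a share of recovered reads, Cr1l made up 0.204% (95% Wilson interval 0.195 to 0.213) and 0.194% (0.185 to 0.204). Cd55 made up 0.0359% (0.0323 to 0.0398) and 0.0280% (0.0246 to 0.0320), a difference between WT libraries larger than their counting error. Such intervals cover counting error only, since amplified reads without molecular identifiers are not independent molecules.

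**Figure D1:**
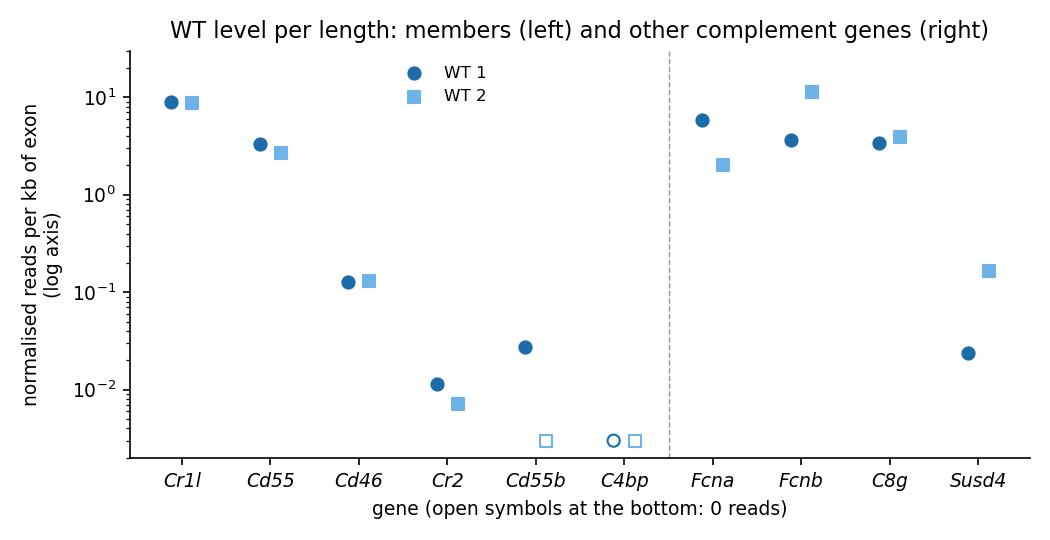
Normalised reads per kb of exon in the 2 WT libraries (log axis) for the 6 members, left of the dashed line, and for 4 other complement genes, right of it; each point is 1 library and open symbols at the bottom mark 0 reads. Cr1l and Cd55 sit at 8.77 and 2.99 on average and Cd46 at 0.129, while the points of Fcna, Fcnb and Susd4 lie further apart between the libraries than those of Cr1l.

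Divided by exon length, the order of the upper members was unchanged. Cr1l stood at 8.77 ± 0.104 normalised reads per kb of exon (SD, n = 2), a level above that of 92.7% of genes, those at 0 included. Cd55 followed at 2.99 ± 0.447 per kb, above 86.8% of genes, so that Cr1l was 2.93-fold above it. Cd46 stood at 0.129 ± 0.00226 per kb, which is 23.3-fold below Cd55 and 68.1-fold below its neighbour Cr1l. Each of these steps was larger than the spread between the WT libraries. At the bottom, Cd55b (0.0137 ± 0.0194) and Cr2 (0.00927 ± 0.00294) did not differ beyond their spread. With the WT libraries pooled, the exact 95% Poisson interval was 0.000389 to 0.0856 per kb for Cd55b and 0.00196 to 0.0278 for Cr2. C4bp had 0 reads, and the limit of 3 reads over both WT libraries corresponds to 0.0115 per kb. Per kb of the longest coding transcript instead of all exons, the levels were 32.7 for Cr1l, 5.74 for Cd55, 0.156 for Cd46, 0.0174 for Cd55b and 0.0121 for Cr2, in the same order.

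Some of these reads could have been assigned elsewhere. The longest transcripts of Cd55 and Cd55b align over 1157 bases with 91.6% identity. Of the distinct 50-base words in the transcripts of Cd55, 8.0% also occur in Cd55b, and 23.0% of those of Cd55b occur in Cd55. The single Cd55b read is therefore uncertain. Cr1l and Cr2 transcripts align over 654 bases with 70.2% identity and share no 50-base word. Cd46 overlaps 5 other annotated genes, of which Gm37132, on the same strand within the gene, had 3 and 2 WT reads. On the opposite strand, A330023F24Rik had 8 and 6 WT reads and Gm37366 had 6 and 4, while Mir29b-2 and Mir29c had 0. Cd46 itself had 21 and 17, so its low level is uncertain in this respect. The antisense gene Gm16083, which overlaps the start of Cd55, had 14 and 11 WT reads, and without a stated use of strand the reads of such partners cannot be told apart.

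Levels in WT varied from gene to gene in both stretches. Near Cr1l, Cd34 reached 118.8 ± 4.71 normalised reads per kb in WT (SD, n = 2), above 99.7% of genes, while Plxna2, further out, had 17 and 4 reads. Near Cd55, Yod1 had 1508 and 926 WT reads, Dyrk3 342 and 209, and Mapkapk2 168 and 294. Pfkfb2, which overlaps Yod1 on the other strand, had 48 and 33. The immune genes between them were low, with Fcmr at 14 and 0 reads, Il10 at 1 and 5, and Il19, Il20, Il24 and Fcamr listed at 0. Among the 17 neighbours listed, 7 were listed at 0 in all 4 libraries.

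**Figure D2:**
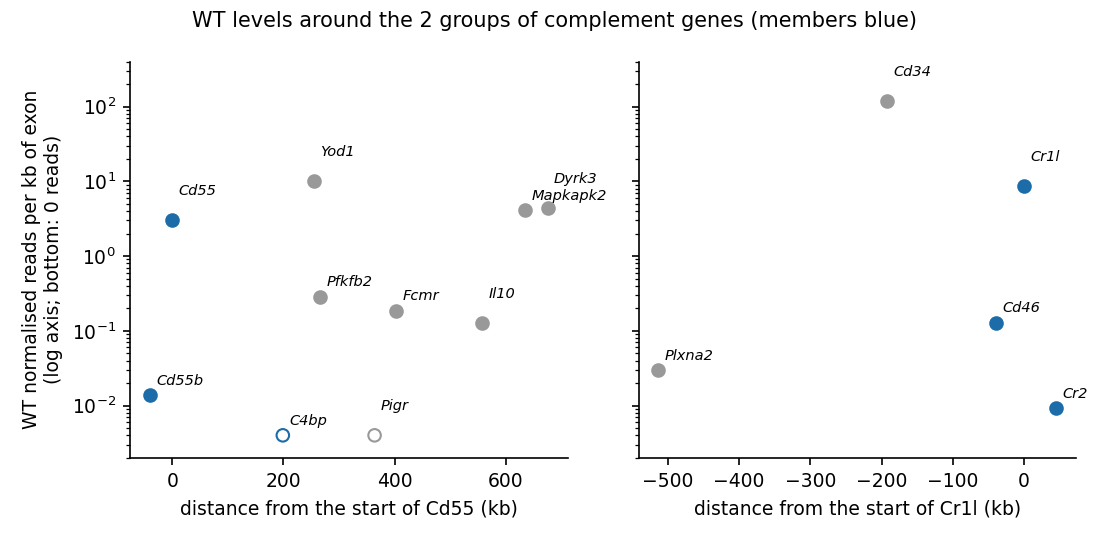
Mean normalised reads per kb of exon in WT (log axis) against the distance of each gene's start from the start of Cd55 (left) or Cr1l (right), in kb; members are blue, other genes grey, open symbols at the bottom mark 0 WT reads, and neighbours listed at 0 in all libraries are not drawn. Cd55 and Cd55b, 39.7 kb apart, and Cr1l and Cr2, 45.1 kb apart, differ in level within each pair, and Cd34 and Yod1 lie above all members of their stretch.

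In ATF4 KO, 4 reads of Cr1l were the only reads of any member. They all lay in ATF4 KO replicate 1, and ATF4 KO replicate 2 had 0. Cr1l thus made up 0.0111% of the reads of ATF4 KO replicate 1 (95% Wilson interval 0.00431 to 0.0285), below its share in either WT library. Cd55, Cd46, Cr2, Cd55b and C4bp had 0 reads in both ATF4 KO libraries. On the deposited log2 scale Cr1l had values of 6.44 and 6.42 in the WT libraries, 6.66 in ATF4 KO replicate 1 and 3.34 in replicate 2. The ATF4 KO values of Cr1l lie on either side of the WT values. Cd55 had values of 3.76 and 3.54 in WT, and those of ATF4 KO, 2.72 and 2.69, were lower, with no read behind them. Cd46 had a value of 1.37 in each WT library, below the 1.41 of each ATF4 KO library, where it had no read. For a gene with 0 reads in a library, the deposited value is set by the transform from the gene's other values and its dispersion. After rounding, Cr2 had a value of 0.28 and Cd55b one of -0.21 in all 4 libraries, and C4bp was listed at 0. Before rounding, the ATF4 KO values of Cr2 and Cd55b lay slightly above those of WT, again with no ATF4 KO read.

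**Figure D3:**
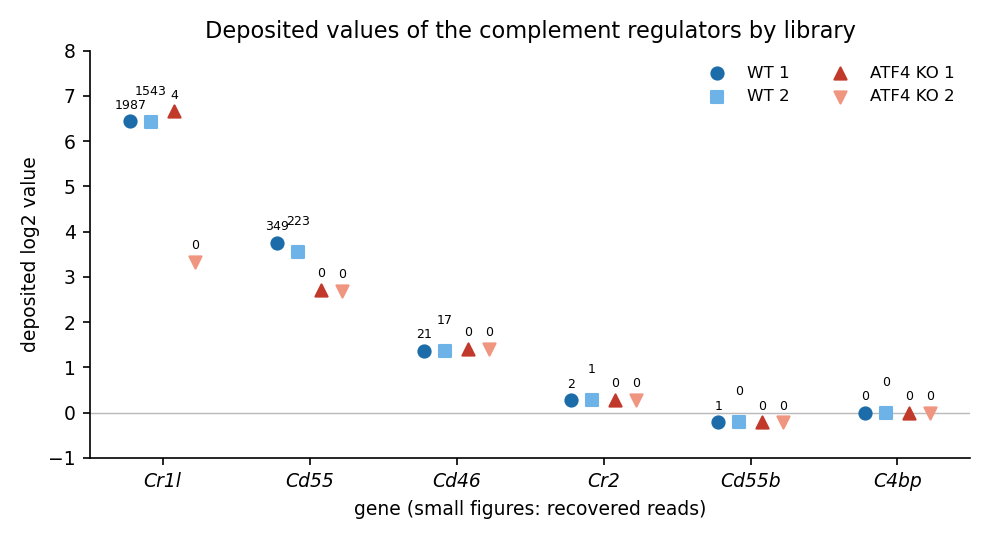
Deposited log2 value of each member (vertical axis) in each of the 4 libraries, with the recovered reads printed above the points. Cr1l in ATF4 KO replicate 1, with 4 reads, is the 1 ATF4 KO point that rests on reads; the other ATF4 KO points have 0 reads, including those of Cd46, which lie above WT.

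Of the 6 members 3 had a level that could be tested, and 2 of these passed the test, Cd55 as lower and Cd46 as higher in ATF4 KO. Over all 1199 genes tested, limma with Benjamini-Hochberg adjustment called 47.0% of genes, 24.6% as higher and 22.4% as lower, so 2 of 3 is not far from the background. Cd55 fell by 0.94 ± 0.10 on the log2 scale (SE, limma adjusted p = 0.0079). Cd46 was higher by 0.04 ± 0.00121 (SE, limma adjusted p = 0.00203), a difference between 38 reads in WT and none in ATF4 KO. Cr1l differed by -1.43 ± 1.41 (SE, limma adjusted p = 0.456) and did not pass. Without ATF4 KO replicate 1 its difference was -3.09 (limma adjusted p = 0.00122), and without ATF4 KO replicate 2 it was 0.23 (limma adjusted p = 0.0982). With limma and voom weights on the recovered reads it was -1.19 (adjusted p = 0.868) by size factors and -5.88 (adjusted p = 0.313) by read totals. In the deposited values, the size and direction of the Cr1l difference therefore depend on which ATF4 KO library is kept.

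Neither call of a member rests on a read in ATF4 KO. The ATF4 KO values of both genes, with an SD of 0.019 for Cd55 and 0.0008 for Cd46, are set by the transform. The p-values of these 2 calls therefore do not measure a spread of reads between the ATF4 KO libraries. Among all genes called higher, 283 of 295 had 0 reads in both ATF4 KO libraries, with differences of 0.02 to 0.10. Among those called lower, 257 of 268 had 0 reads in both, with differences of 0.10 to 3.96 in size. Cd46 and Cd55 belong to these 2 classes. When limma with voom weights was run on the recovered reads with the deposited size factors, Cd55 differed by -0.07 (adjusted p = 0.845) and Cd46 by 3.76 (adjusted p = 0.0161), still with no ATF4 KO read. With read totals as library sizes Cd55 differed by -4.61 (adjusted p = 0.00461), and Cd46 turned to -0.77 (adjusted p = 0.0518). These scalings move the median difference of all genes from 0.02 in the deposited values to 1.23 and -3.33, so the direction and size for Cd46, and the size and call for Cd55, depend on how the ATF4 KO libraries are scaled.

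The reads themselves show how much the ATF4 KO libraries could have revealed. At its WT level and the deposited size factors, Cr1l would have given 3.26 and 3.37 reads in the ATF4 KO libraries, 6.63 in all, against the 4 seen. The ratio was 0.603 with an exact 95% Poisson interval of 0.164 to 1.54, so no difference was detected for Cr1l at these size factors, and the interval leaves room for a large fall or a smaller rise. By read totals 154.5 reads would have been expected, and the ratio was 0.0259 (0.00705 to 0.0663). Cd55 would have given 1.06 reads by size factors and 24.8 by totals, against 0 seen. The limit of 3 reads for a count of 0 lies above the first value and below the second. Cd46 would have given 0.0716 or 1.67 reads, Cr2 0.0055 or 0.129 and Cd55b 0.00168 or 0.0399. All of these lie below 3 reads, so a fall of Cd46, Cr2 or Cd55b was not detectable in either scaling. A level of 3 reads in ATF4 KO replicate 1 equals 83.5 normalised reads, close to the WT level of Cr1l.

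**Figure D4:**
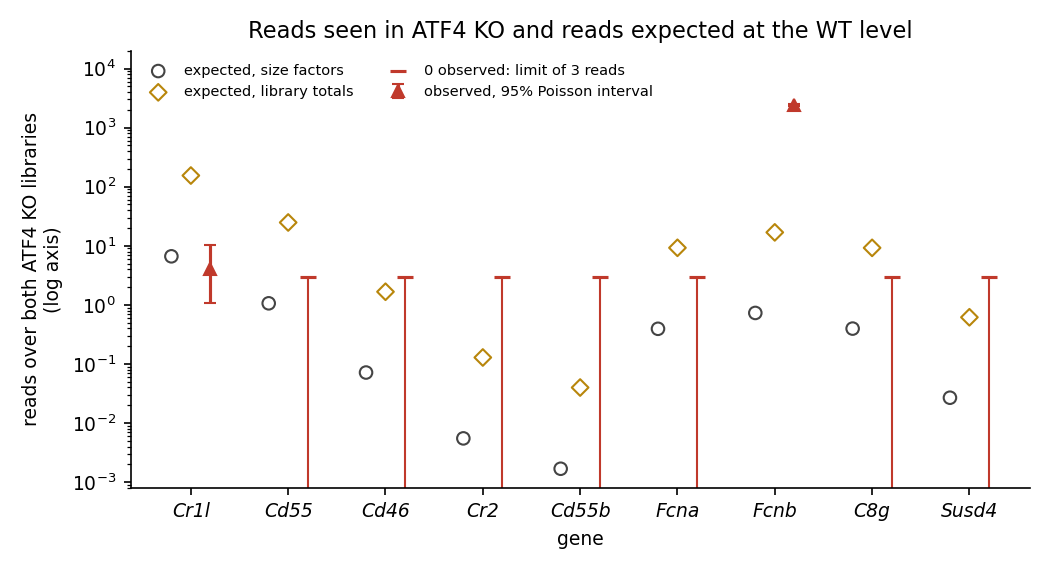
Reads over both ATF4 KO libraries (log axis) for 5 members and 4 other complement genes: open circles are reads expected at the WT level by size factors, diamonds by read totals, triangles reads seen with exact 95% Poisson intervals, and capped lines the limit of 3 reads where 0 were seen. The interval of the 4 reads of Cr1l spans the circle (6.63) and lies below the diamond (154.5), the limit for Cd55 lies between its 2 expectations, and Fcnb, with 2395 reads, lies above both of its own.

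Genes at the same WT level as the members were read in ATF4 KO about as patchily. Of 133 genes with 60 to 120 normalised reads in WT, the range of Cr1l, 62.4% had a read in ATF4 KO replicate 1 and 53.4% in replicate 2, and 49 had reads in both. The median of these genes was 2 reads over the pair. Of 231 genes with 10 to 30 normalised reads, the range of Cd55, 36.4% had any ATF4 KO read. In the range of Cd46, 0.1 to 1, 8.3% of 506 genes did, and in that of Cr2 and Cd55b, up to 0.1, 3.36% of 417 genes. A count of 0 was thus the common outcome for genes at the level of Cd55 and below.

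**Figure D5:**
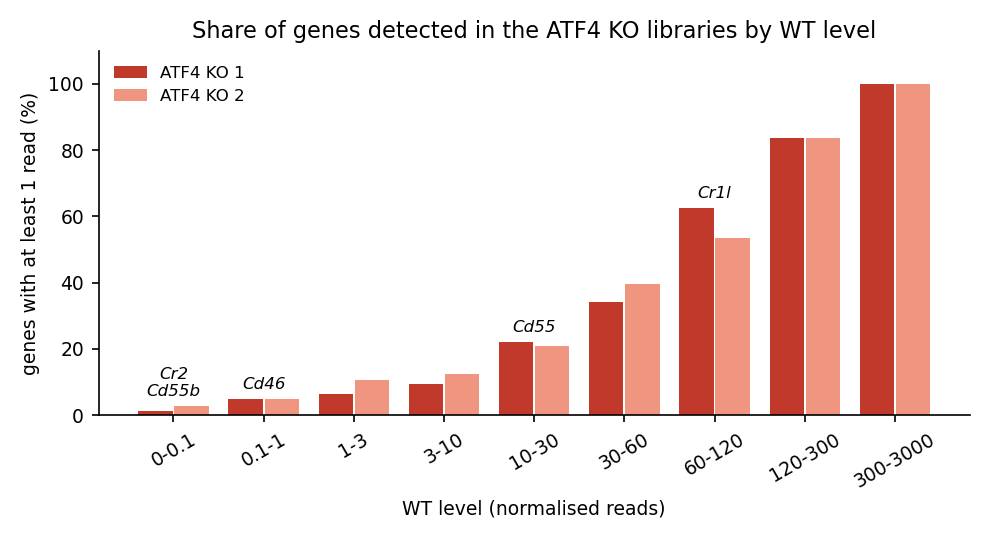
Share of genes with at least 1 read in each ATF4 KO library (vertical axis, %) by WT level in normalised reads (horizontal axis), with each member named above its range. The share rises from 1.2% and 2.64% in the lowest range to 62.4% and 53.4% in the range of Cr1l and covers all 19 genes in the highest.

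The 4 genes with values nearest to Cr1l over the 4 libraries, by Euclidean distance on the deposited log2 scale among 1125 genes compared, were Txndc9 (0.42), Pcp4l1 (0.61), Imp4 (0.64) and Traf3ip3 (0.65). Each had 3 reads in ATF4 KO replicate 1 and 0 in replicate 2. Txndc9, a thioredoxin-domain protein gene, had 2214 and 1724 WT reads. The likeness to Cr1l is therefore that of WT level and of where a few ATF4 KO reads fell.

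Of the 59 listed genes of the complement pathway, 14 lie in the measured stretch, the 6 members included. Of these, 10 had a value other than 0 and 7 could be tested. Of the 7, 3 passed, among them Cd46 as higher and Cd55 as lower, near the 47.0% called over all genes tested. The median difference of the 7 was -3.3e-05 on the log2 scale, against 0.02 over all genes tested. C8g, a subunit of the C8 component of the membrane attack complex, had 109 and 100 WT reads and 0 in ATF4 KO. Susd4, a membrane regulator of the same repeat family, had 2 and 11 WT reads and 0 in ATF4 KO.

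The ficolins start the lectin pathway, and 1 of them, Fcnb, had the most ATF4 KO reads of the listed pathway genes. Fcnb, the ficolin of myeloid cells, had 107 and 258 reads in WT and 1809 and 586 in ATF4 KO. Both ATF4 KO libraries lay above both WT libraries in reads, although they held far fewer reads in all. Fcnb made up 0.0110% and 0.0324% of the reads in the WT libraries, and 5.01% and 1.41% of those in the ATF4 KO libraries. Its log2 values were 10.66 and 10.67 in WT against 14.39 and 13.24 in ATF4 KO, a difference of 3.15 ± 0.85 (SE, limma adjusted p = 0.0734) that did not pass the test. With limma and voom weights on the reads the adjusted p was 0.0298 by size factors and 0.0302 by totals. Fcnb did not pass in any other limma fit that kept all libraries. There the limma adjusted p ran from 0.0542 with a lowest value of 3 to 0.325 among only genes with an ATF4 KO read, with 0.274 for the replicate block. Fcnb is also on the myeloid list whose summed share is given above. Fcna, the macrophage ficolin, had 173 and 48 reads in WT and 0 in ATF4 KO.

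Among markers of the cell types known for the members at or near 0, those of B cells were low, and 1 liver gene had high deposited values. Of the B cell list, Cr2, Fcmr and Fcrla lie in the stretch. Fcrla had 57 and 25 WT reads, the summed list made up 0.00750% and 0.00327% of WT reads, and none had an ATF4 KO read. Of the liver genes in the stretch, Apcs, Crp, F13b and C4bp were listed at 0. Apoa2, an apolipoprotein gene, had log2 values of 9.16 in each WT library, 14.42 in ATF4 KO replicate 1 and 9.17 in replicate 2. Its reads were not recovered, so its WT level is not known. A high deposited value need not mean many reads, as Fcnb had WT values of 10.66 and 10.67 with 107 and 258 reads. Of the testis list, Zp3r and Tnp1 were listed at 0 and Cd46 had its 38 WT reads. The erythroid gene Ackr1 had 66 and 43 WT reads and 0 in ATF4 KO, and the platelet gene Selp had 1533 and 1059 in WT against 1 and 0 in ATF4 KO.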

How the data were processed

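Values of sorted mouse LT-HSC RNA, 2 WT and 2 ATF4 KO libraries grouped by their titles, came from 1 table of the authors with a log2 value per gene and library. The deposited log2 scale is not named in the sources used here. HISAT2 2.2.1, featureCounts, DESeq2 and GRCm38 are named, with no role or order, in the submitters' processing notes. The 4167 complete lines cover most of chromosome 1 and the start of chromosome 2. The last line is incomplete and was left out, and other genes, Atf4 included, were not analysed here. GENCODE M21 held 4117 of the symbols.

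The values solve the equations of a regularised logarithm with 0.164486 as the weight of the ridge and 0.5 as the smallest fitted read number. Starting values for the ATF4 KO size factors came from 281 genes with 0 ATF4 KO reads. All constants were then fitted to 6 genes with 0 WT reads, with a largest misfit of 7.33e-15 over the 24 values of these 6 genes. Whole reads were accepted where they gave the deposited values back within 1e-09. The recovery and the limma fit were tried on simulated data. There the recovery accepted reads for 279 of 286 genes, and 100% of these were exact. How this trial carries over to the 27 genes with reads not recovered was not tested. The outcome of the limma trial is not given here, and how it carries over to ATF4 KO values set by the transform was not tested. Size factors are 21.7 and 17.2 for WT and 0.0360 and 0.0372 for ATF4 KO.

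limma 3.58.1 (R 4.3.3), with a trended and robust prior, was fitted to the log2 values of the 1199 genes that reached 1 in 2 or more libraries. A difference is ATF4 KO less WT. Benjamini-Hochberg adjustment ran over all genes tested, with a threshold of 0.05. The design had allowed for linear values or counts, and as the values were already logarithms no pseudocount was added. The reads are derived from the authors' values, so the test on them (voom) is an alternative. Expected ATF4 KO reads are the mean normalised WT reads times the ATF4 KO size factors or, as an alternative added after seeing the data, scaled by read totals. Exact Poisson and Wilson intervals and the limit of 3 reads for a count of 0 cover counting error only.

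All members were named, along with the other complement genes and neighbours with values (some genes are not reported here), the highest and the called genes of each marker list, and the 4 genes nearest to Cr1l. The members and lists were chosen with earlier results of these data known. Upstream sequences are from RefSeq (GRCm38.p6), with all 6 members matched. Transcripts were aligned with BLAST 2.17.0.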

Additional observations from a re-analysis of the deposited data

How the results depend on the processing

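The 563 genes called became 203 with a minimum difference of 1, 1315 without the filter on low values, 255 with a lowest value of 3, 291 without a trend in the prior, and 307 with voom and size factors. None was called when limma was refitted to only the 522 genes with an ATF4 KO read or with reads not recovered (78 at an unadjusted limma p under 0.05). Leaving out a replicate gave 634 to 884. Called genes were 52.4% higher, against 78.9% without the filter, 5.88% with a lowest value of 3, 9.62% without the trend, 74.9% by voom with size factors and 2.48% by voom with totals (606 called). The 3 complement genes called became 0 with the minimum difference and among genes with an ATF4 KO read, 6 without the filter, 1 with the lowest value of 3 or without the trend, and 4 to 5 with a replicate left out. The difference of Cr1l was -3.09 to 0.23 with a replicate left out, and -1.19 and -5.88 by voom with size factors and totals, with no call by either. Cd55 was at -0.0719 (adjusted p = 0.845) by voom with size factors, and its adjusted p was 5.06e-06 to 0.0312 in its other alternatives, and its difference in the deposited values does not reach a minimum of 1. Cd46 was at 0.0446 (adjusted p = 0.111) without the trend, at 3.76 (adjusted p = 0.0161) by voom with size factors and at -0.77 (adjusted p = 0.0518) by voom with totals. Where a count fell because fewer genes were tested, that is the alternative's construction, and otherwise the cause was not tested.

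The yield of 410 genes with a mean deposited WT value between 3 and 6 was 357% of expectation. Deposited WT values also depend on ATF4 KO reads, as those of Fcnb show. Genes with many ATF4 KO reads can thus enter this range through those reads, so the yield is not an independent scaling. Of the 3057 ATF4 KO reads of the 410 genes, 1926 lay in 10 genes, and 226 of the 410 had 0 reads in both libraries. Expected ATF4 KO reads scaled by this yield were 23.7 for Cr1l, 3.79 for Cd55, 0.256 for Cd46, 0.0196 for Cr2 and 0.00601 for Cd55b. By totals they were 154.5, 24.8, 1.67, 0.129 and 0.0399. With a replicate left out they were 3.26 to 6.69, 0.522 to 1.18, 0.0352 to 0.0725, 0.0027 to 0.00673 and 0 to 0.00337. The ratio of Cr1l was 0.169 by yield, 0.0259 by totals and 0 to 1.23 with a replicate left out. Deviations of WT replicate 1 and ATF4 KO replicate 1 correlated at -0.076 across 1199 genes. This cannot decide whether the replicate numbers pair the libraries, since values of genes with 0 ATF4 KO reads are set by the transform. With the replicate block 510 genes were called and the calls of Cd55 and Cd46 stood (adjusted p = 0.026 and 0.0201). Low read numbers limit every ATF4 KO statement on the members, and neither ATF4 KO library held a read of 1399 genes. The cause of these counts of 0 was not tested.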

Other observations

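Outside the complement genes, 1 immunoglobulin receptor gene near Cd55 showed reads in ATF4 KO alone. Pigr, which encodes the receptor that carries polymeric IgA and IgM across epithelia, had 0 reads in both WT libraries, 14 in ATF4 KO replicate 1 and 0 in ATF4 KO replicate 2. Its log2 difference of 9.23 did not pass the test (limma adjusted p = 0.153), and it rests on 1 library. Plxna2, near Cd34, had 1 read in ATF4 KO replicate 2, and its difference of 2.81 did not pass either (limma adjusted p = 0.139). Both genes reached the filter value of 1 only in the ATF4 KO libraries, the group where their values are high. For each gene, 1 of these ATF4 KO values belongs to a library with 0 reads. That they were tested at all thus depends on that group.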
